A study of Mus musculus with 3 samples.

Results

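The interferon regulatory factor (IRF) genes examined here are 8 mouse genes, Irf1, Irf2, Irf3, Irf4, Irf5, Irf7, Irf8 and Irf9, taken by name from the 22367 protein-coding genes of GENCODE M1 on build mm9. Each was found once. They lie at chr11:53583516-53591876 (Irf1), chr8:47825099-47932812 (Irf2), chr7:52253018-52258218 (Irf3), chr13:30841095-30858796 (Irf4), chr6:29476625-29491869 (Irf5), chr7:148448605-148452380 (Irf7), chr8:123260258-123280594 (Irf8) and chr14:56222408-56228867 (Irf9), all on the plus strand but Irf7. Every gene was read in 2 ways: within 2 kb of its start, and over its territory, which is the gene plus 20 kb on either side in 400-bp bins.

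The data used here map FLI1 and RUNX1, which are 2 of the transcription factors the study followed, in mature megakaryocytes (MK Mat), the large polyploid marrow cells that shed platelets. The cells came from wild-type CD1 mouse fetal livers at embryonic day 15 according to the labels, with the study's methods giving a day earlier, and were cultured for 5 days in thrombopoietin, the growth factor of the lineage. Mature cells were collected over bovine serum albumin gradients after antibody depletion of TER119-, GR1- and CD11b-positive cells. Chromatin immunoprecipitation and sequencing (ChIP-seq) gave 1 FLI1 library, 1 RUNX1 library and 1 input library of unprecipitated chromatin, all from the same kind of cells with no mutant or untreated group. By the study's methods, DNA of several precipitates was combined before sequencing. With 1 library per group no biological replicate separates the values and no test between conditions was possible. Every interval given here is an exact 95% interval for counting error alone.

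IRF proteins share a DNA-binding domain that reads paired GAAA units, the core of the interferon-stimulated response element. IRF3 and IRF7 are phosphorylated downstream of nucleic acid sensors and switch on type I interferon genes, IRF5 acts downstream of Toll-like receptors, IRF9 brings STAT proteins to interferon-stimulated genes, and IRF1 and IRF2 act at the same elements as an activator and mainly as a repressor. IRF4 and IRF8 serve lymphoid and myeloid cells, where they bind with the ETS factor PU.1 at composite sites that join GGAA to GAAA. FLI1 is itself an ETS factor and RUNX1 a runt-domain factor, and both are needed for megakaryocyte development.

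The deposited files held very unequal numbers of reads, 62946422 for FLI1, 3973856 for RUNX1 and 21745220 for the input. A 400-bp bin therefore held 10.6 FLI1 reads, 0.668 RUNX1 reads and 3.66 input reads on average over the 2379 Mb of the genome with reads, and a difference in RUNX1 could be seen only where it was large. The study lists many more mapped RUNX1 reads than this file holds, so every RUNX1 limit given here is that of the file and not of the experiment. A FLI1 ratio of at least 2 at the start was present at 24.1% of all genes. Among genes that mark cell types it was present at 6 of 9 megakaryocyte genes. The same held for 1 of 7 granulocyte and macrophage genes, 0 of 6 B and T cell genes and 1 of 6 erythroid genes. Of the megakaryocyte genes Itga2b (5.45) and Pf4 (4.21) were highest and Ppbp (1.26) and Vwf (1.23) lowest. The contrast was smaller by another measure, an enriched FLI1 bin within 2 kb (rule below). In the same order of groups such a bin was found at 7 of 9, 4 of 7, 1 of 6 and 1 of 6 genes, beside 36.4% of all genes. These are occupancies and not RNA levels, and the share of other cells in the preparation was not tested.

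The sequences below show 1 or 2 FLI1-enriched bins of each gene, picked after the counts were seen so that every gene has at least 1. Each is on the mm9 plus strand, and the longer pieces are centred on the base covered by most FLI1 fragments. Capitals mark the ETS words CAGGAA and CCGGAA, the word GGAAGT, and pairs of the unit GAAA that lie 2 bases apart, on either strand. Where a longer piece would touch an untranslated region, 30 bases around the word nearest that base are shown instead, and these need not hold the base itself. In the Irf9 piece the word lies 122 bp from it. Every piece shown holds a word in capitals, but not every bin does. The Irf2 bin at 79.4 kb and the Irf3 bin at 11 kb upstream hold none of these words.
Irf2, upstream of the start (chr8:47824826-47825025): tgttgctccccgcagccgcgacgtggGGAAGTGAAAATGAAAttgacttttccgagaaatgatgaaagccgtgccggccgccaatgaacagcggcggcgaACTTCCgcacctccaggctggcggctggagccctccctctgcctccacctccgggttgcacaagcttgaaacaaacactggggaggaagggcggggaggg
Irf1, 5.8 kb upstream bin (chr11:53577530-53577609): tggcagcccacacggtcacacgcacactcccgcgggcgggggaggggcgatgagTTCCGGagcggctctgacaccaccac
Irf1, 25.4 kb downstream bin (chr11:53608875-53608954): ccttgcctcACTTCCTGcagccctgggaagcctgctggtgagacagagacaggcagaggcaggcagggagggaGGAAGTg
Irf2, last intronic run (chr8:47930664-47930743): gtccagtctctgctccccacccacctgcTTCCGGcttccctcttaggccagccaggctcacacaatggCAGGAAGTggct
Irf3, at the start (chr7:52252891-52252920): aacttttacttcGGAAGTtcaactttccca
Irf7, 2.6 kb upstream bin (chr7:148454900-148454929): gtggttagccacCCGGAAgcccgcagctgg
Irf9, untranslated exon (chr14:56222811-56222840): ctggagataaccTTCCTGggaaccagacac
Irf4, past the gene end (chr13:30858891-30858970): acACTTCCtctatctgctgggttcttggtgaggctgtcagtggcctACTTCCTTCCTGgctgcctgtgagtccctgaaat
Irf5, 13 kb upstream bin (chr6:29463485-29463564): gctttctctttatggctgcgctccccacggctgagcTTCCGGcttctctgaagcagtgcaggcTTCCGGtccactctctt
Irf8, exonic bin (chr8:123276165-123276244): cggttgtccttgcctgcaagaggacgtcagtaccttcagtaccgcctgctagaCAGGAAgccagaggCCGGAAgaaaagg
Irf8, past the gene end (chr8:123287305-123287384): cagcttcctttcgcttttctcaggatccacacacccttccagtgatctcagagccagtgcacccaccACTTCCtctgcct

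FLI1 at the gene starts differed widely across the family. Irf2 stood highest with 415 FLI1 reads against 41 input reads, a depth-scaled ratio of 3.46 (2.53 to 4.95), above that of 94.6% of all genes. At Irf7 205 FLI1 reads met 35 input reads for a ratio of 2.00 (1.41 to 2.98), which at 1.9998 before rounding lay just under the 2-fold line. For Irf3 the counts were 228 and 44 (1.77, 1.29 to 2.53), and for Irf1 202 and 46 (1.50, 1.10 to 2.14). In these 4 genes the interval lay above 1.

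The remaining 4 genes had intervals that contained 1. Irf9, the STAT partner, had 217 FLI1 and 63 input reads (1.18, 0.895 to 1.60), with the highest input count of the family. Its place here rests on that input count. Against the genome-wide FLI1 mean alone Irf9 stood at 2.05 (1.79 to 2.34), above Irf7 (1.94) and Irf1 (1.91). The lymphoid and myeloid gene Irf4 had 122 and 43 (0.973, 0.687 to 1.42) and Irf5 126 and 45 (0.960, 0.683 to 1.39). Irf8, essential for macrophage and dendritic cells, came last at 117 and 52 reads (0.773, 0.556 to 1.10). At Irf2 the ratio of at least 2 that defines a call was met, so 1 of 8 IRF genes was called, beside 24.1% of all genes, and the family median of 1.34 stood beside the all-gene median of 1.23.

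Window size moved this count. With 1 kb either side Irf1 (2.87) and Irf3 (2.62) joined Irf2 (4.85) above 2-fold, making 3 of 8 beside 35.2% of all genes, and with 5 kb 0 of 8 reached it, beside 6.92%.

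Neighbours in that order were mostly not told apart by counting error. Irf2 exceeded Irf7, the gene below it, by 1.73 times (1.03 to 2.87), and for none of the other 6 neighbouring pairs did the interval leave out 1. Over all 28 pairs it left out 1 in 15. In 1 random thinning of FLI1 to the RUNX1 depth Irf7 stood at 3.47 and Irf2 at 2.04. That draw kept few reads and has no interval, so it does not decide the order.

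**Figure D1:**
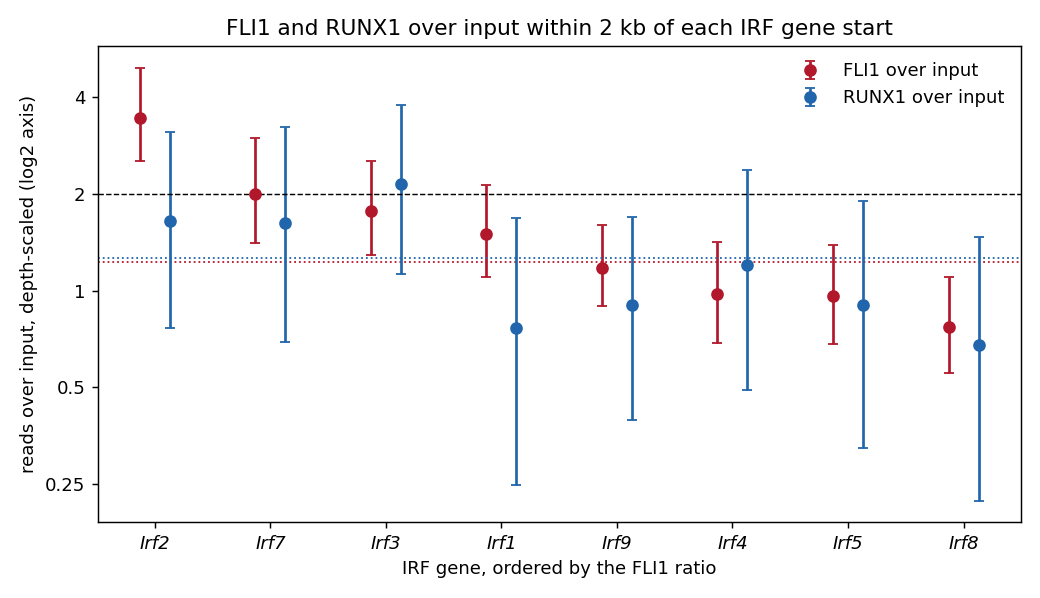
FLI1 (red) and RUNX1 (blue) reads over input within 2 kb of each IRF gene start, scaled for depth, on a log2 axis, with bars for exact 95% counting intervals. Dotted lines mark the all-gene medians, and the dashed line marks 2-fold. Irf2 at 3.46 stands above the 2-fold line with its whole FLI1 interval, while RUNX1 intervals overlap one another widely.

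In the territories the order changed. Irf2 again led, with 6338 FLI1 and 1750 input reads (1.25, 1.19 to 1.32), followed by Irf1 with 2121 and 613 (1.19, 1.09 to 1.31) and Irf3 with 1879 and 558 (1.16, 1.06 to 1.28). Irf4 with 1770 and 616 reads (0.992, 0.905 to 1.09) and Irf9 with 1742 and 608 (0.989, 0.902 to 1.09) had intervals that contained 1. Irf8 (2008 and 813, 0.853), Irf5 (1720 and 718, 0.827) and Irf7 (1405 and 598, 0.811) lay below 1. Over all genes the median was 0.972 and the lower quartile 0.829. Irf8, Irf5 and Irf7 were not told apart there. Of the neighbouring pairs in this order the interval left out 1 for Irf3 over Irf4 (1.17, 1.03 to 1.34) and Irf9 over Irf8 (1.16, 1.02 to 1.31). The flank decided part of this order. With 10 kb on either side Irf3 stood at 0.926, below Irf4 at 1.05 and Irf7 at 0.965, and with 50 kb Irf3 stood at 0.934, while Irf2 led at both, with 1.3 and 1.2 (rounded up from just under the line). A territory ratio of at least 1.2 was found at 1 of 8 IRF genes, Irf2, beside 15.9% of all genes, and the interval of the ratio between genes left out 1 in 21 of 28 pairs.

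RUNX1 counts were small at every start. Irf3 had 17 RUNX1 reads (2.15, 1.13 to 3.78) and was the sole gene of the 8 at 2-fold or more, beside 19.7% of all genes. With 1 kb either side Irf7 (2.66) and Irf2 (2.35) joined Irf3 (3.04), making 3 of 8 beside 33.9% of all genes. With 5 kb 0 of 8 reached 2-fold, beside 5.97%. Irf2 had 12 reads (1.65, 0.766 to 3.11), Irf7 had 10 (1.62, 0.690 to 3.23), Irf9 had 10 (0.905, 0.397 to 1.70) and Irf4 had 9 (1.2, 0.491 to 2.38). Irf5 held 7 reads (0.902, 0.324 to 1.90), Irf1 held 6 (0.765, 0.249 to 1.68) and Irf8 held 6 (0.677, 0.222 to 1.47). The interval left out 1 in 1 of 28 pairs, so an order of RUNX1 at the starts was mostly not detectable at the depth of the RUNX1 file.

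Over the territories RUNX1 ran from 0.696 (0.559 to 0.852) at Irf8, with 103 reads, to 1.08 (0.877 to 1.31) at Irf4, with 121 reads. Irf5 stood at 0.727 (0.578 to 0.898) with 95 reads and Irf7 at 0.846 (0.668 to 1.05) with 92. Irf9 stood at 0.868 with 96 reads, Irf2 at 0.961 with 307, Irf3 at 1.03 with 105 and Irf1 at 1.05 with 117, each with an interval containing 1. At a ratio of at least 1.2, 0 of 8 IRF genes were called, beside 15.1% of all genes. Irf8 and Irf5 were the only members whose RUNX1 interval lay wholly below 1, beside an all-gene median of 0.947 and a lower quartile of 0.815. Here the interval left out 1 in 8 of 28 pairs, in which Irf4, Irf1, Irf3 and Irf2 each stood above Irf5 and Irf8.

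**Figure D2:**
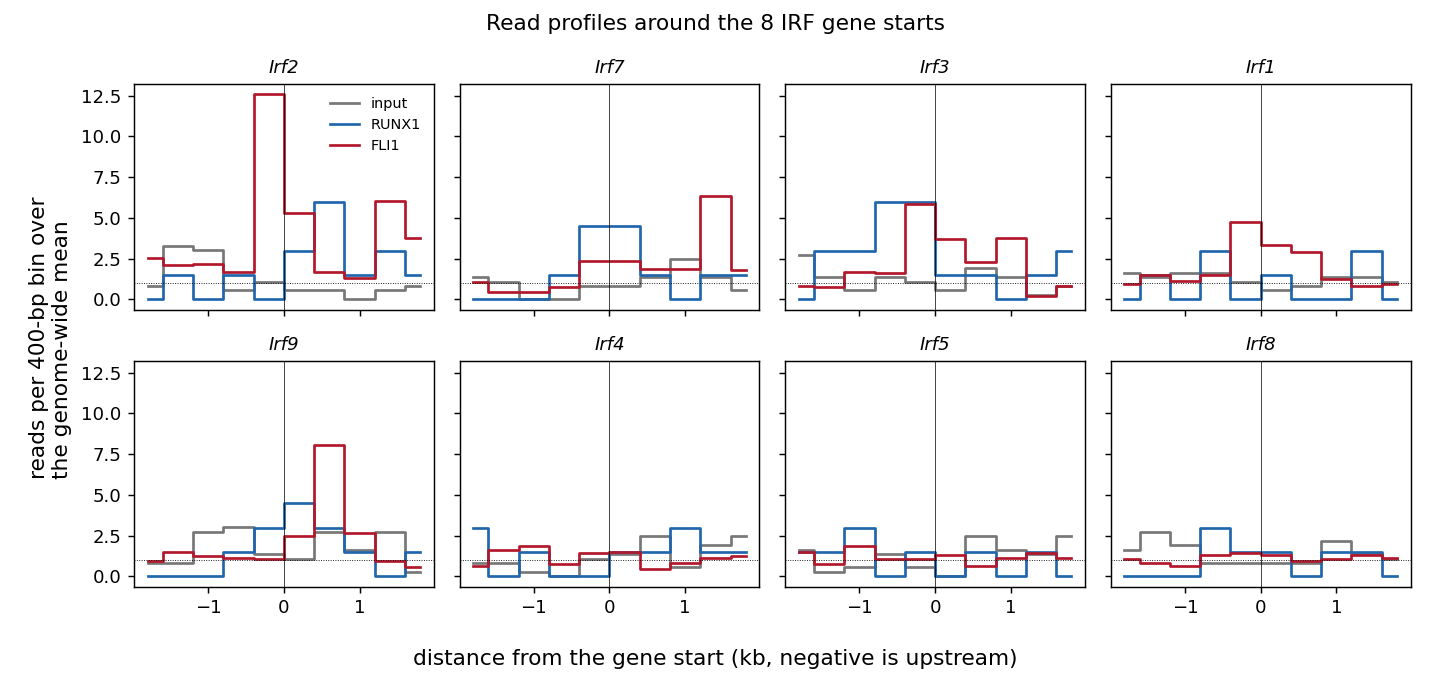
Reads per 400-bp bin over the genome-wide mean of the same library, against distance from the gene start in kb, for FLI1 (red), RUNX1 (blue) and input (grey), with 1 panel per IRF gene. FLI1 peaks just upstream of Irf2, Irf3 and Irf1 and inside Irf7 and Irf9, while Irf4, Irf5 and Irf8 are flat within the 2 kb shown.

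The FLI1 signal sat at different places around the starts. A bin was called enriched where its FLI1 reads reached 3 times the expected number, which was set by the mean over the genome or, where higher, by the surrounding input. Irf2 held 133 FLI1 reads in the bin just upstream of its start (9.48 times expected), 56 in the bin just downstream and 64 at 1.4 kb. A noncoding gene on the other strand, Gm16675, begins in the same upstream stretch. Irf3 held 62 reads upstream (4.50 times), in an exon of Bcl2l12, a gene that runs the other way across the Irf3 start, so the signal cannot be assigned to either gene. Irf1 held 50 reads upstream of the start (3.79 times).

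In 2 other genes the enriched bin lay inside the gene, with 67 reads at 1.4 kb in an exon of Irf7 (4.32 times) and 85 at 0.6 kb in an untranslated exon of Irf9 (4.40 times). Irf4, Irf5 and Irf8 had no such bin, and no bin within 2 kb of their starts held more than 20 FLI1 reads. An enriched bin within 2 kb was thus found at 5 of 8 IRF genes, beside 36.4% of all genes.

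Across the territories 38 of 1259 bins were FLI1-enriched, or 3.02%, beside 0.548% of bins in the genome and 1.04% of bins over the territories of all genes. At least 1 lay in the territory of 8 of 8 IRF genes, beside 63.3% of all genes. The single Irf5 bin was lost with bins shifted by 200 bp, with reads not moved and with 10 kb on either side. At 5 times expected Irf4 and Irf5 had 0 bins. The 38 bins formed 28 separate runs. The most covered base lay between genes in 16 bins, in introns in 14, in untranslated exons in 5 and in other exons in 3. The share of territory bins that was enriched was 5.31% at Irf3, 4.31% at Irf9, 4.17% at Irf1, 4.07% at Irf2, 2.75% at Irf7, 1.33% at Irf8, 0.725% at Irf5 and 0.694% at Irf4, against an all-gene median of 0.769%. With 10 kb on either side Irf2 still had 15 bins, whereas Irf3 had 2 in place of 6, Irf9 had 1 in place of 5 and Irf1 had 3 in place of 5, over shorter territories.

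Irf2, the longest of the genes at 108 kb, carried 15 of the 38 bins. Of its bins 9 lay in introns between 25 and 106 kb from the start, with 45 to 80 FLI1 reads each, and 3 lay past the end of the gene. The latter held 122 reads (8.17 times expected), 138 reads (7.53 times) and 83 reads (3.58 times) at 1612, 3311 and 5034 bp beyond it. The Irf2 signal was therefore spread along the gene and its far end as well as at the start.

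Irf1, which had a modest start, had a pair of adjacent bins upstream between genes, with 81 FLI1 reads at 6.2 kb (5.96 times) and 98 at 5.8 kb (7.17 times). A pair with more reads but similar folds lay 25 kb downstream of the start, in an intron of Gm12216 and nearest the start of Gm11006. It had 137 and 184 reads (5.46 and 7.63 times), the latter being the highest count of any member bin. Irf7, a short gene, had 127 reads at 2.6 kb upstream (7.74 times) and 53 at 2.2 kb, just outside the start window. The stretch around the most covered base of the 127-read bin touches an untranslated region of the neighbouring gene Cdhr5. Irf8 had 71 reads in an exon at 15.8 kb (3.86 times) and 98 past its end, in an intron of Gm20388 (6.66 times). Irf4 had 1 bin, with 56 reads (4.34 times), 135 bp past its end, and Irf5 had 1, with 41 reads (3.05 times), 13 kb upstream, which lay near the threshold and nearer the start of Kcp.

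Not all of these bins belong by position to an IRF gene. The IRF start was the nearest protein-coding start for 26 bins and another start for 12, of which 8 lay within 2 kb of that other start. In the Irf3 territory these were Prmt1 (73 FLI1 reads in its bin), Scaf1 (86) and Rras (130 and 108), with start ratios of 2.02, 3.62 and 4.62 over input. In the Irf9 territory they were Fam158a (45 reads), Psme2 (71 and 72 reads), an activator subunit of the proteasome, and Rnf31 (128), an E3 ubiquitin ligase subunit, at start ratios of 1.49, 3.58 and 3.26. The intervals were 2.56 to 5.28 at Psme2 and 2.37 to 4.71 at Rnf31. The start windows of Psme2 and Rnf31 overlap and share reads, as do those of Scaf1 and Rras. All these neighbours are named because an enriched bin lies near their start. That choice favours high FLI1 ratios, so they are not compared with the IRF starts.

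**Figure D3:**
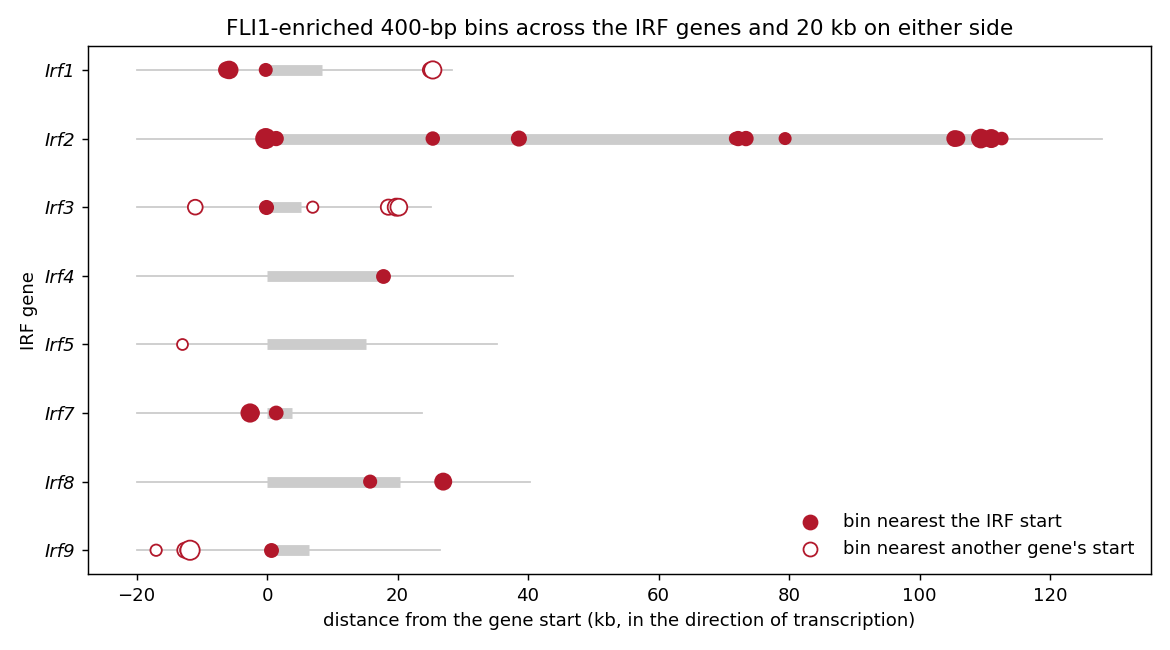
FLI1-enriched 400-bp bins (circles, area in proportion to reads over expected) by distance from the gene start in kb, with thick grey for the gene and thin grey for 20 kb on either side. Filled circles are nearest the IRF start and open circles nearest another gene's start. Irf2 carries 15 of the 38 bins, and most bins of Irf3 and Irf9 are open.

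No RUNX1 bin met its own rule (at least 8 reads and 5 times expected) anywhere in the 8 territories, 0 of 8 IRF genes beside 4.77% of all genes in the territory and 1.47% within 2 kb of the start, and 0.0148% of bins in the genome. The highest RUNX1 count was 7 reads, in the Irf1 bin at 6.2 kb upstream (8.16 times expected), which was also FLI1-enriched. At the depth of this file 8 reads in a bin are 12 times the genome-wide rate, so weaker RUNX1 sites were not detectable.

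Summed over the 38 FLI1-enriched bins, RUNX1 had 77 reads (60.8 to 96.2), 3.03 times (2.39 to 3.79) the genome-wide rate. That was 2.08 times (1.64 to 2.60) the expected number, set by the genome mean or, where higher, by the surrounding input. The value over the genome-wide rate compares with 1.17 times (1.10 to 1.25) in the other 1221 bins of the territories. All FLI1-enriched bins of the genome had 3.05 times the rate, a value inside the interval of the IRF bins. By territory, Irf1 had 16 RUNX1 reads (4.79 times, 2.74 to 7.78), Irf3 18 (4.49 times, 2.67 to 7.08) and Irf9 15 (4.49 times, 2.51 to 7.39). Most of the Irf3 and Irf9 reads lay in bins nearest another gene's start. The bin nearest the Irf3 start held 4 of the 18, and that nearest the Irf9 start 2 of the 15. At Irf1 the pair of bins nearest Gm11006 held 4 and 3 of the 16. Irf2 had 21 reads over its 15 bins (2.09 times, 1.30 to 3.20) and Irf7 6 (2.99 times, 1.10 to 6.53). Irf8 had 1 read, and Irf4 and Irf5 had 0 over 1 bin each, which allows up to 5.52 times the rate.

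RUNX1 was unevenly spread over these bins. It had at least 4 reads in 8 bins and 0 in 9. The bin just upstream of the Irf2 start, with 133 FLI1 reads, held 0 RUNX1 reads. In contrast the Irf7 bin at 2.6 kb upstream held 5 RUNX1 reads, the Irf3 start bin 4, the Rras bin at 19.8 kb 6 and the first Irf2 bin past the gene end 5. With counts this low, single bins were not compared with one another.

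The letters under the FLI1 bins were then read. An ETS word, CAGGAA or CCGGAA, was found in 29 of the 38 bins (76.3%), beside 72.1% of all FLI1-enriched bins of the genome, against 36.7% of bins taken every 40 kb and 46.7% of the 400 bp upstream of all gene starts. The 38 bins form 28 runs and are not independent, so no interval is given for this share. The related word GGAAGT, searched after the data were seen, was in 24 bins (63.2%), against 47.7%, 21.1% and 26.9% in the same sets. A RUNX word, TGTGGT or TGCGGT, was in 12 bins (31.6%, against 38.5%, 27.6% and 27.5%).

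The IRF-type words were few. Paired GAAA units 2 bases apart were in 4 bins (10.5%, against 6.12%, 6.54% and 5.51%), and the composite of GGAA and GAAA 2 bases apart in 3 (7.89%, against 5.50%, 4.42% and 4.16%). The bin upstream of the Irf2 start was one of them. It held no CAGGAA or CCGGAA but GGAAGT 3 bp from its most covered base, and 65 bp away paired GAAA units directly beside a second GGAAGT, which together hold the composite word, all in capitals in the Irf2 sequence above. These matches are descriptions of letters, and an ETS word can overlap a composite word.

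The rest of the interferon pathway was read at 54 genes other than the 8 (1 of 55 listed names, Mb21d1, had no match). FLI1 reached 2-fold at 15 of them (27.8%), beside 24.1% of all genes, with a median of 1.56 against 1.23. By role these were 2 of 4 receptor genes, 3 of 5 kinase and STAT genes, 4 of 14 sensors and adaptors, 1 of 2 IRF kinases, 2 of 5 inhibitors, 3 of 20 target genes and 0 of 3 interferon genes. The target genes Ifit2 and Oas3 were called at 2.00, on the line itself. The highest ratios were at Ifnar1, a type I interferon receptor chain (433 FLI1 and 38 input reads, 3.89, 2.82 to 5.64), Jak2, a cytokine receptor kinase that also serves the thrombopoietin receptor (3.28, 2.28 to 5.02), and Irak4, a Toll-like receptor kinase (3.11, 2.16 to 4.77). The lowest were at Oas2, an antiviral oligoadenylate synthetase (0.536), and Tlr9, a DNA sensor (0.609). RUNX1 reached 2-fold at 12 (22.2%), beside 19.7% of all genes, with Jak2 at 3.32 (1.72 to 6.08), the IRF kinase gene Tbk1 at 2.87 (1.44 to 5.32) and the RNA sensor gene Ifih1 at 2.78 (1.33 to 5.37). Psmb9 and Tap1, which share their reads, count as 2 of those 12.

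**Figure D4:**
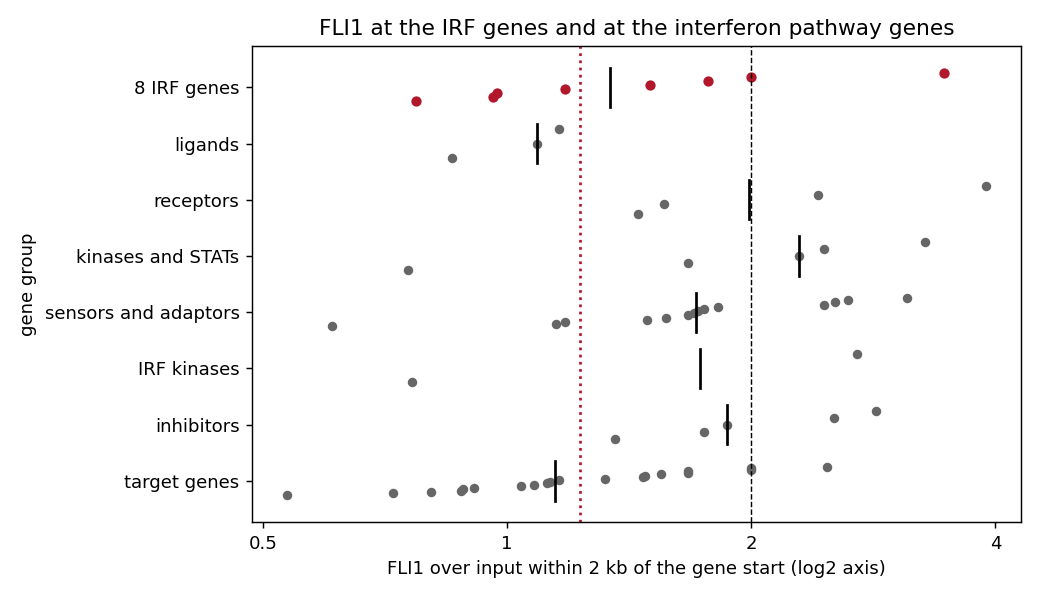
FLI1 over input within 2 kb of the start, on a log2 axis, for the 8 IRF genes (red) and the interferon pathway genes by role (grey), with black bars for group medians, a red dotted line for the all-gene median of 1.23 and a dashed line at 2-fold. The plot shows the genes that have a role group. The IRF genes span 0.773 to 3.46, within the range of the pathway.

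The shape of the FLI1 profile over the 10 bins within 2 kb of the start was also compared with those of the other IRF genes and the pathway genes. Irf1 was most like Ifit2 (Pearson r = 0.97 over 10 bins), Irf3 most like B2m (0.958), Irf2 most like Pias1 (0.925), Irf9 most like Ddx58 (0.892) and Irf7 most like Tlr7 (0.887). Irf5, Irf4 and Irf8 had no FLI1 peak in this window, so no likeness is given for them. Each value is the highest of many comparisons, and all profiles come from the same library, so these values are descriptions of shape only.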

How the data were processed

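The deposited BED files list aligned reads as positions on mm9, and the submitters' processing notes name Bowtie, MACS 1.4 and SICER 1.1. Input reads were 34 bp long and ChIP reads 50 bp. The files hold positions and no deposited signal or peak values, so all counts were made here. Reads on the mitochondrial genome were dropped, repeated input positions (3.238%) were counted once, and reads were moved 75 bp toward the fragment centre. Labels and methods disagree on how the input was sheared (sonication or MNase), and every ratio over input rests on that library. Ratios are depth-scaled with 0.5 added to each count. Intervals are exact for counting error (95%). They are Clopper-Pearson for ratios over input, conditional odds-ratio intervals for ratios between genes and Poisson intervals for single counts. Bins were compared with the highest of the genome mean and the scaled input in windows of 1200 bp, 5.2 kb and 10 kb, as 1 library per factor allowed no test. The counting code was tested on simulated data. Members, lists and thresholds were chosen with earlier results of these data known. All 8 members are named, with neighbouring genes whose start is nearest an enriched bin, and from the pathway the 3 highest and 3 lowest FLI1 and the 3 highest RUNX1 ratios, with 1 of these genes not reported here. Python 3.11.15, numpy 2.4.6, scipy 1.17.1 and pandas 2.3.3 were used. Sequences were read from the mm9 genome.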

Additional observations from a re-analysis of the deposited data

How the results depend on the processing

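Many calls at single genes depended on the settings. The 1 IRF gene at 2-fold FLI1 became 3 with 1 kb either side (beside 35.2% of all genes), 0 with 5 kb (6.92%), 3 with no input (27.9%), 2 with background scaling (25.6%), 2 with repeated input positions kept (24.6%) and 3 after 1 random thinning of FLI1 to RUNX1 depth (29.5%). In that thinning Irf7 (3.47) passed Irf1 (2.06) and Irf2 (2.04), so the top of the order turned in this 1 draw, for which no interval was made. The 1 gene at 2-fold RUNX1 became 3 with 1 kb (33.9%) and 0 with 5 kb (5.97%). For FLI1 territories the 1 call became 0 with 50 kb on either side (11.1%), 3 with background scaling (20.3%) and 2 with repeated input positions kept (17.3%). The 38 FLI1 bins became 60 at 2 times expected (1.30% of bins in the genome), 19 at 5 times (0.232%), 64 with the genome-wide rate only (0.935%), and 6 when FLI1 was thinned to the RUNX1 depth and read by the RUNX1 rule (0.106%). RUNX1 bins numbered 6 at a minimum of 6 reads, at Irf1, Irf2, Irf3 and Irf4. They made up 0.477% of member bins, beside 0.0918% of bins in the genome. The Irf3 bin among them was nearest the Rras start. Those of Irf2 and Irf4 held 12 or 13 FLI1 reads each and were not FLI1-enriched. The 6 bins of thinned FLI1 were all among the 38, and RUNX1 in them was 5.99 times the genome-wide rate. That value rests on 24 RUNX1 reads in bins of 1 random draw and has no interval. The 15 pathway genes became 28 at 1.5-fold (51.9% beside 38.5% of all genes), 24 with 1 kb either side (44.4% beside 35.2%) and 3 at 3-fold (5.56% beside 8.73%). The ETS word was in 57.9% of 200-bp windows around the most covered base, beside 20.3% of sampled 200-bp windows of the genome. The other totals stayed within 1.5 times, though counts at single genes could move further. With 50 kb on either side the FLI1 bins rose from 5 to 13 at Irf9 and from 2 to 6 at Irf8. Of the single-gene start ratios 126 stayed within their interval and 10, all of them FLI1 ratios, moved outside it. Of the latter, Irf8 FLI1 passed from 0.773 to 1.10 with 1 kb and 1.11 with no input, and Irf9 FLI1 from 1.18 to 0.873 with 5 kb, each to the other side of 1. RUNX1 intervals were wide, so staying within them says little. For example, with 1 kb RUNX1 passed from 0.677 to 1.2 at Irf8, from 0.765 to 1.09 at Irf1 and from 0.905 to 1.28 at Irf9. RUNX1 at Irf7 passed from 1.62 to 2.66 with 1 kb and to 0.989 with 5 kb. Background scaling moved all log2 FLI1 ratios by 0.0514. The causes were not tested. No paired analysis was possible because each group holds 1 library, which also leaves no replicate to omit.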
